A study of Sus scrofa with 12 samples.

Results

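In porcine skeletal muscle, 48 chromatin-associated RNAs (caRNAs) carrying a gene name were listed in both GRID-seq libraries of Large White pigs (LW) and in neither library of Meishan pigs (MS). They were chosen by that rule, after leaving out RNAs named only by a Tx. or ENSSSCG identifier and after leaving out PRKAG3 and ACTC1. Earlier results of these data were known when the choice was made. These RNAs are 48 of 1090 RNA names in any of the 4 lists, 600 of which carried a gene name. The mirror set, listed in both MS libraries and neither LW library, held 72 named RNAs, and 256 named RNAs were listed in all 4 libraries. Of the 48, 47 matched a protein-coding gene of the RefSeq table for Sscrofa11.1 by symbol and chromosome, and the remaining one is RNaseP_nuc, the RNA subunit of nuclear ribonuclease P.

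The tissue was longissimus muscle of piglets aged 2 weeks, taken from LW, labelled a commercial lean pig breed, and from MS, labelled a Chinese local pig breed. No treatment or genetic modification was described for either breed. Each breed had 2 GRID-seq libraries and 2 libraries of BL-HiChIP against H3K27ac, the histone acetylation of active promoters and enhancers. The methods name 2 male piglets, without saying whether in all or per breed and without tying a library to an animal, so p-values measure only the spread between these libraries, which may be technical, and breed cannot be told apart from animal.

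GRID-seq joins an RNA to the DNA beside it in fixed nuclei through a bivalent linker, so each read pair names an RNA and a place on the genome. Most RNA found on chromatin in this way is nascent transcript still held at its own gene, while small nuclear RNAs are typically found at many genes. HiChIP ties together pieces of DNA that lay close to each other and carried the acetylated histone, and a pair of bins joined more often than their distance predicts is termed a loop.

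The 4 GRID-seq lists held between 518 and 678 RNA names and between 7172517 and 9943666 reads of listed RNAs. Of 14 markers of muscle fibres, 8 or 9 were listed in every library, whereas no marker of satellite cells, adipocytes, endothelium, immune cells, erythroid cells, smooth muscle or nerve was listed, and 2 or 3 of 5 fibroblast markers were. In whole tissue, fewer cells of a type and less RNA per cell cannot be told apart. An RNA absent from a list has no value there: the lowest reads of any listed RNA were 441 and 446 for LW and 432 and 455 for MS, so absence from the MS lists does not show absence from MS chromatin.

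The 48 RNAs took 7.42% of the listed reads in LW replicate 1 and 6.73% in LW replicate 2, with medians of 5320.5 and 5902 reads. Their counts in both libraries moved together. Replicate 2 had 1.10 times the reads of replicate 1 at the median member, between 0.964 and 1.16 times over all 48, and 45 were higher in replicate 2. The chi-square of these counts was 2.00 per degree of freedom over the 48 members, above the 1 that counting noise alone gives, and 47.0 over the 432 RNAs in both LW lists. The chi-square grows with the number of reads, so these values do not compare how well the sets replicate. Over the 432 RNAs the ratio was also 1.10 at the median, with 5th and 95th percentiles of 1.03 and 1.17. Because the reads decided the listing, they are given as a description and were not tested against MS.

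Positions are those of the GRID-seq lists in Sscrofa11.1. Genes of the muscle membrane, the excitation apparatus and the contractile cell formed a group of 8 members, with reads per kb of gene between 64.5 and 190.4. TRDN (chr1:39180879-39567240), which encodes triadin, the anchor of the calcium release complex in the sarcoplasmic reticulum, had 67305 and 73574 reads, the most of any member, and 174 and 190.4 reads per kb. PPP3CA (chr8:119428743-119754650), the catalytic subunit of calcineurin, which links calcium to gene control in muscle, had 32944 and 36739 reads, or 101 and 113 reads per kb. SGCD (chr16:66452416-66887924), the delta subunit of the sarcoglycan complex that ties the cytoskeleton to the basement membrane, had 57299 and 63255 reads, and 132 and 145 reads per kb. TLN2 (chr1:109208672-109680199), the talin of costameres, had 30410 and 33705 reads over a long gene, which is only 64.5 and 71.5 reads per kb. TXLNB, a taxilin of muscle, stood at 163 and 176 reads per kb, and VAMP5, a vesicle protein also called myobrevin, at 154 and 160.4. The cadherin of myoblasts CDH15 and the intermediate filament protein nestin, NES, completed the group with 111 and 124 and with 77.7 and 83.2 reads per kb.

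Metabolic genes accounted for 9 members between 56.0 and 146 reads per kb. FBP2 (chr10:27631496-27665305), the fructose bisphosphatase of muscle, was the highest of them in replicate 2, with 4313 and 4952 reads, or 128 and 146 reads per kb. ANGPTL4, a secreted inhibitor of lipoprotein lipase, had 129.8 and 126 reads per kb, and it was, with SLC25A34 and MDH2, among the 3 members with more reads in replicate 1. PPARGC1B (chr2:150823373-150919378), a transcriptional coactivator of mitochondrial genes, had 6446 and 7182 reads, only 67.1 and 74.8 per kb. The glycolytic enzyme ENO1 had 97.3 and 99.4 reads per kb, and the mitochondrial malate dehydrogenase MDH2 had 70.5 and 70.0. CARNS1, the synthase of the muscle dipeptide carnosine, was the lowest of the group at 56.0 and 60.1 reads per kb. The carbonic anhydrase CA14, the mitochondrial iron-sulphur protein CISD3 and the mitochondrial carrier SLC25A34 completed it.

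The 7 signalling genes included the 3 highest levels per kb among protein-coding members. EGF (chr8:112234365-112330046), the epidermal growth factor, had 26159 and 29329 reads, or 273 and 307 reads per kb. ITGB6 (chr15:67041519-67175234), an integrin beta chain, followed with 27433 and 30276 reads, or 205 and 226 per kb. SESN1 (chr1:75033098-75169987), a sestrin that restrains growth signalling under stress, had 25607 and 28468 reads, or 187 and 208 per kb. The diacylglycerol kinase DGKZ had 137 and 154 reads per kb, the GTPase-activating protein ARHGAP10 had 102 and 111, the kinase MAP4K4 had 72.2 and 78.5, and the cyclin CCNG1 had 80.7 and 92.5.

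Nuclear factors were the largest group, with 11 members. RNaseP_nuc, which processes transfer RNA precursors, had 21080 and 23367 reads on a gene of 0.327 kb (chr7:78551527-78551853), and its 64465 and 71459 reads per kb lie far outside the range of the other members. PSPC1 (chr11:482559-572090), a protein of paraspeckles, had 14458 and 16372 reads, or 161 and 183 reads per kb, and NCAPD2, a subunit of condensin, had 157 and 172. The thyroid hormone receptor THRA stood at 139 and 143 reads per kb, the RNA-binding protein gene RBM12B at 132 and 147, and HOXA5, a homeobox factor of body patterning, at 132 and 146. The chromatin genes MLLT6, DNMT3A, a DNA methyltransferase, and DIDO1 had means that fell in this order, with DIDO1 at 53.6 and 60.3 reads per kb. The transcription factor FOXP1 and the zinc-finger repressor ZBTB20 had 37103 and 40184 and 64346 and 70545 reads over the 2 longest genes of the set, or 59.2 and 64.1 and 71.6 and 78.5 reads per kb.

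Protein synthesis and turnover supplied 7 members between 107 and 176 reads per kb. ASB16 (chr12:19033480-19040434), a member of a family of ubiquitin ligase adaptors, led them with 160 and 176 reads per kb. The translation factor EIF4G2, the co-chaperone DNAJB1, the ubiquitin-conjugating enzyme UBE2H, the neddylation factor DCUN1D2 and the related genes UBALD1 and UBALD2 made up the others. The last 6 members were the basement membrane collagen COL4A2 (73.7 and 85.3 reads per kb), the sialyltransferase ST3GAL6, the ADP-ribosyltransferase family member ART3 (115 and 126), the actin regulator FLII, NREP (142 and 155) and the calcium-binding protein gene EFCAB7.

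**Figure D1:**
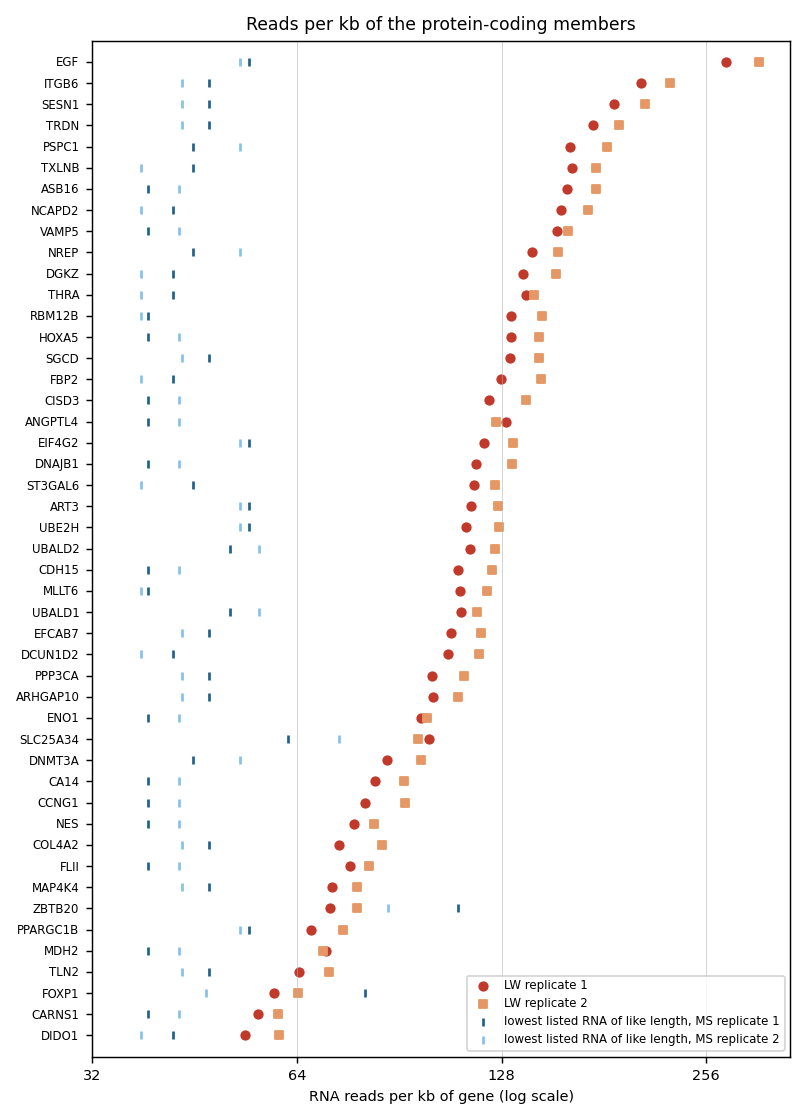
Reads per kb of gene of the 47 protein-coding members, on a log scale, in LW replicate 1 (circles) and LW replicate 2 (squares), with blue ticks for the lowest reads per kb of any RNA of like length in each MS list. EGF stood highest at 273 and 307 reads per kb, DIDO1 (53.6 and 60.3) and CARNS1 (56.0 and 60.1) lowest, and for ZBTB20 the MS ticks lie above the LW values.

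The distance of each member from the level at which RNAs left the lists was small for many. Against the lowest listed RNA whose gene length was within 2-fold, 8 of the 47 protein-coding members stood under 1.5 times in at least one LW library, 25 stood at 2 times or more in both, and 10 at 3 times or more in both. DIDO1 and FOXP1 were themselves the lowest RNA of their length in an LW list, and TLN2 stood at 1.09 times that level. Set against the lowest RNA of like length in the MS lists, as shares of all listed reads, 23 of 47 members had at least 2 times that share in every pairing of an LW with an MS library, and 4 had at least 3 times. For 3 members the LW share did not exceed it in the lowest pairing: ZBTB20 at 0.513, FOXP1 at 0.575 and PPARGC1B at 0.990 times. For ZBTB20 that level rests on 1 and 2 RNAs of like length in the MS lists and for FOXP1 on 6 and 10.

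Just outside the rule stood 47 named RNAs listed in both LW libraries and one MS library. Of these, 44 were in MS replicate 2, which held more listed reads, and 3 in MS replicate 1, namely PGAM2, RPL32 and SLC16A3. In 37 of the 47 the reads per kb in the MS list were below both LW values. Reads decided the listing and were not scaled to depth here. That count is thus partly built into the choice and shows no difference between the breeds. FBXO40, singled out as the RNA of this group with the most reads per kb in LW, had 337 and 362 there and 114 in MS replicate 2.

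Several members shared their locus with another listed RNA on the same strand. EFCAB7 was listed with a span of 145.7 kb (chr6:148851184-148996849), 51.2% of which is the gene PGM1, the phosphoglucomutase of glycogen metabolism, and PGM1 was listed in all 4 libraries. PGM1 had 15231 and 16828 reads in LW, which is 96.9% of the 15714 and 17366 reads listed under EFCAB7 in both replicates. That left 483 and 538 reads that PGM1 did not have, and every bin of PGM1 was also a bin of EFCAB7. In MS, PGM1 had 6560 and 7414 reads. The values of EFCAB7 are therefore uncertain as values of that gene.

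EIF4G2 overlapped ZBED5, which was listed in all 4 libraries, over 5.99% of its span, and ZBED5 reads came to 12.0% and 12.3% of its reads. The listed span of EIF4G2 was 101.5 kb against 12.1 kb in the RefSeq table. Other listed spans were also longer: 14.666 kb against 2.811 kb for DNAJB1 and 16.266 against 3.59 for CISD3. Those of HOXA5 and CARNS1 were 11.223 kb against 3.033 and 15.045 against 8.46. For NREP, 41.7% of the listed span lay inside the RefSeq gene. The listed span was shorter for SGCD, 435.5 kb against 1033.7 kb, and for NREP, 69.9 kb against 362 kb. In many other members both spans were close. Reads per kb, loops and the distance of signal from a gene were taken on the listed spans. For SGCD and NREP, signal counted as beyond 10 kb may therefore lie inside the RefSeq gene. For the members named here other than SGCD, reads per kb and loops may include sequence outside the RefSeq gene. CISD3 and MLLT6, both members, overlapped over 12079 bases, and all 49 and 48 bins of CISD3 were also bins of MLLT6. NCAPD2 lay 2.51 kb from GAPDH and COL4A2 lay 0.102 kb from an RNA named by an Ensembl identifier, both listed in an MS library. Without the members that overlap an RNA of an MS list, 46 remained.

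The signal of an RNA on chromatin was given per bin of 1 kb, and neighbouring bins were not independent: the shortest stretch of adjoining bins away from the genes spanned 22 bins. Stretches are therefore counted here. At the median member, 77.7% of the signal in LW replicate 1 and 72.1% in LW replicate 2 lay on the gene or within 10 kb of it. The same medians were 86.1% and 79.8% for the 254 RNAs of all 4 lists that have a single entry, and 93.2% and 92.9% for the 72 RNAs of the MS lists only, in MS. The RNAs of all 4 lists stood at 92.0% and 85.4% in the MS libraries. The share thus varied between libraries for shared RNAs also, and there the LW and MS values overlapped. The median gene length was 38.002 kb for the 48 members, 17.2 kb for the RNAs of all 4 lists and 17.0 kb for those of MS only. These medians were not tested.

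The share of signal close to the gene fell with gene length across the 47 protein-coding members, with Spearman correlations of -0.75 and -0.76, while the number of stretches beyond 10 kb rose with length (0.89 and 0.88) and with reads (0.88 and 0.89). Genes are not independent replicates, and length and reads are themselves related. ITGB6 had the smallest share close to its gene, 34.7% and 29.6%. SESN1 kept 41.9% and 38.6%, EGF kept 47.6% and 39.8%, TRDN 47.7% and 43.1% and SGCD 46.2% and 44.3%. These 5 protein-coding members had under 50% close to the gene in both libraries, and NREP fell under that mark in replicate 2 alone (53.5% and 49.3%). For SGCD and NREP the RefSeq gene reaches far beyond the listed span from which distance was taken. At the other end, 12 members in replicate 1 and 9 in replicate 2 had at least 99% of their signal close to the gene, among them NES, CCNG1, NCAPD2 and ASB16.

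Distant stretches on the member's own chromosome numbered 626 in LW replicate 1 and 874 in LW replicate 2. TRDN had 150 and 198 of them, ZBTB20 had 100 and 158, and SGCD had 92 and 130. FOXP1 followed with 45 and 51, PPP3CA with 28 and 45, and ITGB6 with 24 and 36. The furthest bin of TRDN lay 190 and 222 Mb from its gene on chromosome 1, and that of ZBTB20 lay 79.7 and 119 Mb away on chromosome 13. In contrast, 15 of the 47 protein-coding members had no distant stretch in either library.

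**Figure D2:**
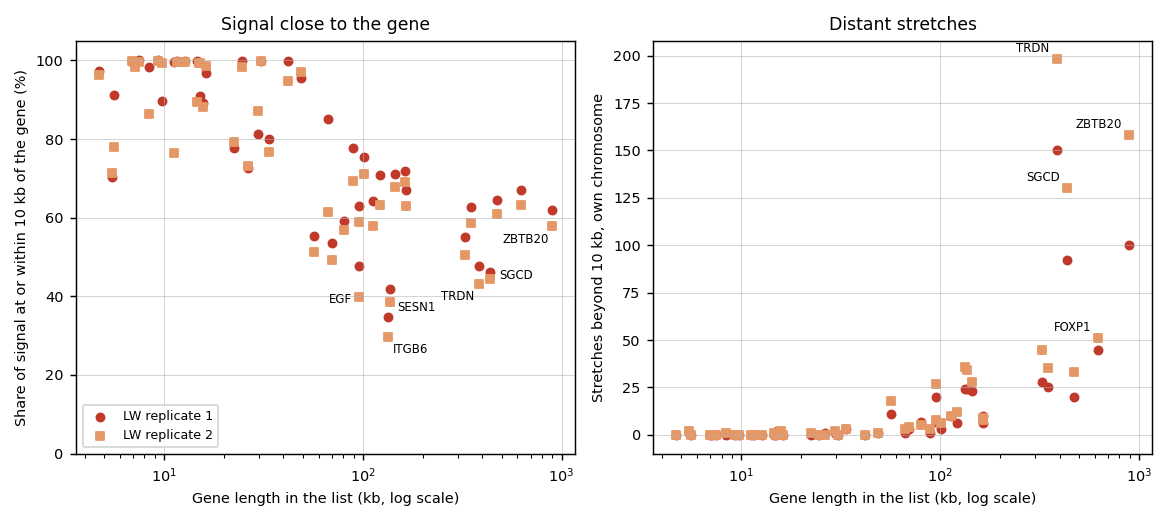
Share of signal on or within 10 kb of the gene (left, percent) and number of stretches beyond 10 kb on the same chromosome (right) against gene length in kb on a log scale, for the 47 protein-coding members in LW replicate 1 (circles) and replicate 2 (squares). ITGB6, at 34.7% and 29.6%, lies lowest on the left, and TRDN, with 150 and 198 stretches, highest on the right.

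Both LW libraries placed the nearer stretches at the same sites more often than the far ones. Of the stretches of replicate 1, 76.4% of those between 100 kb and 1 Mb from the gene overlapped a stretch of the same RNA in replicate 2, 53.8% of those between 1 and 10 Mb and 28.4% of those over 10 Mb. The values for RNAs of all 4 lists were 72.2%, 55.4% and 44.2%. For the stretches of replicate 2 they were 54.0%, 36.7% and 17.1% for the members and 53.4%, 38.9% and 32.1% for RNAs of all 4 lists. Among the latter, 1 RNA held 527 of the 3053 stretches of replicate 1 beyond 10 kb on the own chromosome. The overlap to be had by chance was not estimated. Over all distances, 50.2% of the 626 stretches of replicate 1 and 31.6% of the 874 stretches of replicate 2 were found in the other LW library. PPARGC1B repeated all 7 stretches of replicate 1 in replicate 2, ITGB6 repeated 18 of 24, and ZBTB20 repeated 35 of 100.

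Signal on other chromosomes was rare and was not seen at the same site in both libraries. In LW replicate 1, 9 of the 48 RNAs had such a stretch (18.75%), and in LW replicate 2 there were 8 (16.7%), against 14.2% and 17.3% of the RNAs of all 4 lists. These were 28 and 31 stretches of 22 to 29 kb, and 0 of the 59 overlapped a stretch of the same RNA in the other LW library. For RNAs of all 4 lists, 14.1% of 5433 and 13.6% of 5582 such stretches did. These shares rest in large part on 1 RNA with very many sites. The most stretches of any RNA of that set, at all distances, were 4211 in replicate 1 and 3479 in replicate 2. The most far stretches on the own chromosome were only 527 and 652. TRDN had 12 and 7, ZBTB20 had 5 and 7 and SGCD had 4 and 11. FOXP1 had 1 in each library, by FAM13A on chromosome 8 in replicate 1 and at no RefSeq gene of chromosome 1 in replicate 2. In replicate 1 alone ARHGAP10 had 2, at BUD13 and ARHGEF12 on chromosome 9, and PPP3CA (PRKG1), PSPC1 (BMPR1B) and TLN2 (TRPV1) had 1 each. In replicate 2 alone COL4A2 (GAK and TMEM175), EGF (SLA2 and C17H20orf24) and NREP (KCNG1) had 1 each.

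**Figure D3:**
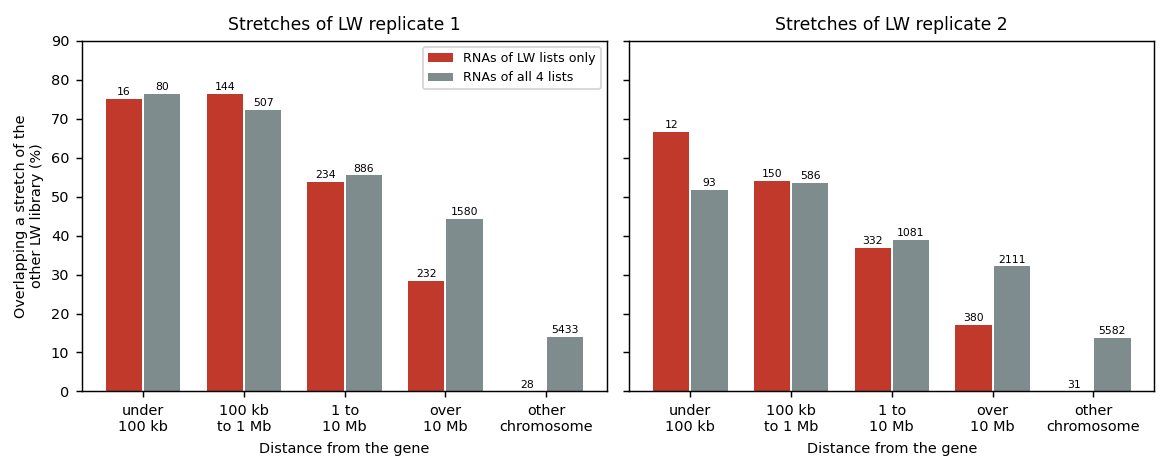
Percentage of stretches that overlapped a stretch of the same RNA in the other LW library, by distance from the gene, for the 48 RNAs of the LW lists only and the 254 RNAs of all 4 lists, with the number of stretches above each bar. The bars for other chromosomes are at 0 of 28 and 0 of 31 stretches for the 48 RNAs.

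RNaseP_nuc was the one member with no signal at its own gene in either library. Its 21080 and 23367 reads gave 1 stretch in LW replicate 1, on chromosome 10 at HNRNPU, and 2 in LW replicate 2, at NFIC on chromosome 2 and ADCY9 on chromosome 3. Other RNAs under 1 kb also had most of their bins away from their genes, some of them on their own chromosome. A U4 gene on chromosome 14, listed in all 4 libraries with 88860 and 100629 reads in LW against 38316 and 47399 in MS, had 3933 of 4186 and 6430 of 6749 bins on other chromosomes in LW, and a U5 gene on chromosome 1 had 385 of 464 and 582 of 635, these 2 being chosen after their values were seen. Short RNAs have near-identical copies in the genome, and how the counting treated them was not given in the sources used here, so the counts of RNaseP_nuc are uncertain.

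Other RNAs also reached the DNA of the 48 genes. In LW, 38 and 39 of the 48 genes held a bin of at least 1 other listed RNA, and in MS 43 and 47 did, with medians of 2, 2.5, 3 and 3 other RNAs. For genes of all 4 lists the shares were 82.3% and 89.8% with the LW lists and 96.5% and 95.3% with the MS lists. The loci of the members were thus reached by RNA in the MS libraries also, though the members' own RNAs were not listed there.

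The loops were not used by the rule. They are not independent of it, since the paper reports that breed differences in loops and in RNA contacts were positively correlated. All 48 genes had a loop with an anchor of 5 kb within 1 kb of either gene end in at least 1 HiChIP library, compared with 98.4% of the genes of all 4 lists and 55.1% of 28220 genes. There were 249 and 285 such loops in LW against 226 and 234 in MS, in libraries of 57028, 43282, 45061 and 33353 loops. Loops were counted for each gene, and the 6 loops of CISD3 were also counted for MLLT6. Over both libraries of a breed, LW had 439 and MS 366, of which 184 had the same pair of anchors in both breeds, or 41.9% of the LW and 50.3% of the MS loops. Loops called in both libraries of one breed and in neither library of the other numbered 26 for LW and 26 for MS. Called in all 4 libraries were 38 loops. No share over all loops of the libraries is given here, so these counts do not show how the members differ from other genes.

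Many loops without the same anchors in the other breed had a loop of that breed close by. A loop could serve as counterpart more than once, and whether these were shifts of the same loop was not tested. When both anchors could lie up to 5 kb apart, 304 of the 439 LW loops (69.2%) and 302 of the 366 MS loops (82.5%) had a counterpart in the other breed. Between replicates of LW, 38.2% of the loops of replicate 1 recurred in replicate 2 with the same anchors and 62.7% within 5 kb. For the replicates only 1 library was searched, whereas between breeds a counterpart in either library of the other breed sufficed. The shares between replicates and between breeds are therefore not comparable. Of the 26 loops called in both LW libraries alone, 18 had an MS counterpart within 5 kb, as did 20 of the 26 MS loops in LW. The loop from SESN1 to FOXO3, a forkhead factor of growth control, is an example: it spanned 545 kb in both LW libraries (-log10 FDR of 4.25 and 7.53) and 540 kb in both MS libraries (6.51 and 11.9).

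The 8 loops of both LW libraries without such a counterpart belonged to ARHGAP10, ART3, PPARGC1B, PPP3CA, SGCD, UBALD1 and ZBTB20, which had 2. That of PPARGC1B spanned 95 kb from the 3′ end of the gene to an anchor near its start that holds the microRNA gene MIR378-1, with -log10 FDR of 2.59 and 2.89, not far above the deposited limit. That of PPP3CA spanned 255 kb inside the gene at 4.94 and 3.82, and that of SGCD 310 kb inside the gene at 4.68 and 6.38. UBALD1 was linked to DNAJA3, a mitochondrial co-chaperone, over 165 kb at 2.41 and 3.27. The 6 such loops of MS belonged to ARHGAP10, HOXA5, MDH2, SGCD, UBALD1 and UBE2H. The MS loop of HOXA5 reached HOXA9 over 15 kb at 3.14 and 12.7, and LW replicate 1 held a loop of 20 kb between the same genes at 3.48 with other anchors. MDH2 was joined to the small heat shock gene HSPB1 over 90 kb at 2.10 and 3.25 in MS, over 75 kb at 6.23 in LW replicate 1 and over 80 kb at 2.87 in LW replicate 2. For MDH2 the same genes were thus joined in both breeds. Its anchors differed between the LW libraries also, so no breed difference in anchors is shown. For HOXA5 the LW loop is that of replicate 1, against both MS libraries, so a joining in both LW libraries cannot be stated. The HOXA5 anchor of the MS loop began at 45420001, near the listed span but not near the RefSeq gene, which starts at 45429691.

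Loops of all 4 libraries tied members to named neighbours. ARHGAP10 was linked over 55 kb to PRMT9, an arginine methyltransferase, at -log10 FDR of 4.35 and 9.86 for LW and of 6.85 and 9.19 for MS. FBP2 was linked over 90 kb to DAPK1 at 5.57, 2.45, 3.30 and 8.17, and CA14 over 20 kb to CIART, a circadian repressor, at 38.9, 84.0, 33.7 and 47.99. RNaseP_nuc had 4 of these loops, among them one of 100 kb to APEX1 and OSGEP and one of 80 kb to KLHL33.

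Of the 621 loops over all libraries, 615 of them distinct, 593 had 1 anchor at the gene, and in 180 of them (30.4%) the other anchor held the end of another gene. Their median span was 75 kb and the longest, of RBM12B, was 1655 kb. The far anchor lay outside the gene in 258 loops called in LW, and the member's own RNA was listed there in 141 in LW replicate 1 and in 150 in LW replicate 2. In 115 loops called in MS alone it was there in 55 and 58. These values were not tested, since signal at a site depends on its distance.

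A loop score was formed for each gene as the sum of -log10 FDR over its loops. In 8 of the 48 genes (16.7%) both LW libraries scored above both MS libraries, and in 0 did both MS libraries score above both LW libraries. Over the 15546 genes with a loop these shares were 21.0% and 7.02%, so the LW share is near the background, and every MS library held fewer loops than LW replicate 1. The 8 genes were ARHGAP10, ART3, HOXA5, PPARGC1B, PPP3CA, PSPC1, VAMP5 and ZBTB20.

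ARHGAP10 had loop scores of 195 and 318 in LW against 106 and 144 in MS, with 10, 13, 9 and 11 loops. PPP3CA scored 30.5 and 40.7 in LW against 14.4 and 9.57 in MS. VAMP5 scored 43.4 and 47.4 in LW against 22.4 and 18.0 in MS, and ZBTB20 scored 52.6 and 79.0 against 27.7 and 41.9. In these genes the groups did not overlap and all libraries held loops.

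PPARGC1B scored 4.97 and 2.89 in LW from 2 loops and 1 loop, and had no loop in either MS library. PSPC1 scored 24.1 and 7.46 in LW and 5.15 in MS replicate 1, with no loop in MS replicate 2. ART3 scored 13.0 and 15.4 in LW and 9.65 in MS replicate 1, again with no loop in MS replicate 2. HOXA5 scored 32.2 and 23.0 in LW against 11.4 and 14.8 in MS. PSPC1 had 8, 1, 2 and 0 loops in the 4 libraries and ART3 had 2, 3, 1 and 0, so these differences rest on few loops.

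Other members with high scores overlapped between breeds. TRDN scored 67.5 and 190.4 in LW against 39.8 and 141 in MS, SESN1 70.1 and 130.4 against 65.8 and 101, and ITGB6 57.0 and 122 against 30.8 and 85.3. SGCD scored 23.0 and 81.9 against 13.5 and 44.9, EGF 18.8 and 54.1 against 13.7 and 31.7, and RNaseP_nuc 36.3 and 66.6 against 28.5 and 43.9. In all 6, replicate 2 scored above replicate 1 in both breeds. TLN2 (54.2 and 75.2 against 54.5 and 62.1), FBP2 (32.005 and 36.9 against 32.7 and 41.2), FOXP1 (27.9 and 18.7 against 33.8 and 24.9) and NREP (18.7 and 109 against 23.0 and 98.99) also overlapped.

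At the other end COL4A2 scored 18.7 and 38.7 in LW against 33.7 and 76.1 in MS, and DCUN1D2 scored 26.5 and 67.1 against 49.0 and 84.8. CARNS1 had 15.1 and 0 in LW against 9.26 and 12.5 in MS. DGKZ had 8.49 and 0 against 9.40 and 2.09, and TXLNB 0 and 24.8 against 8.17 and 12.1. In each of the last 3, one LW library held no loop. NCAPD2 (6.07 and 17.5 in LW, 4.23 and 31.1 in MS) and DIDO1 (22.8 and 15.0, 20.6 and 2.13) showed no order between breeds.

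**Figure D4:**
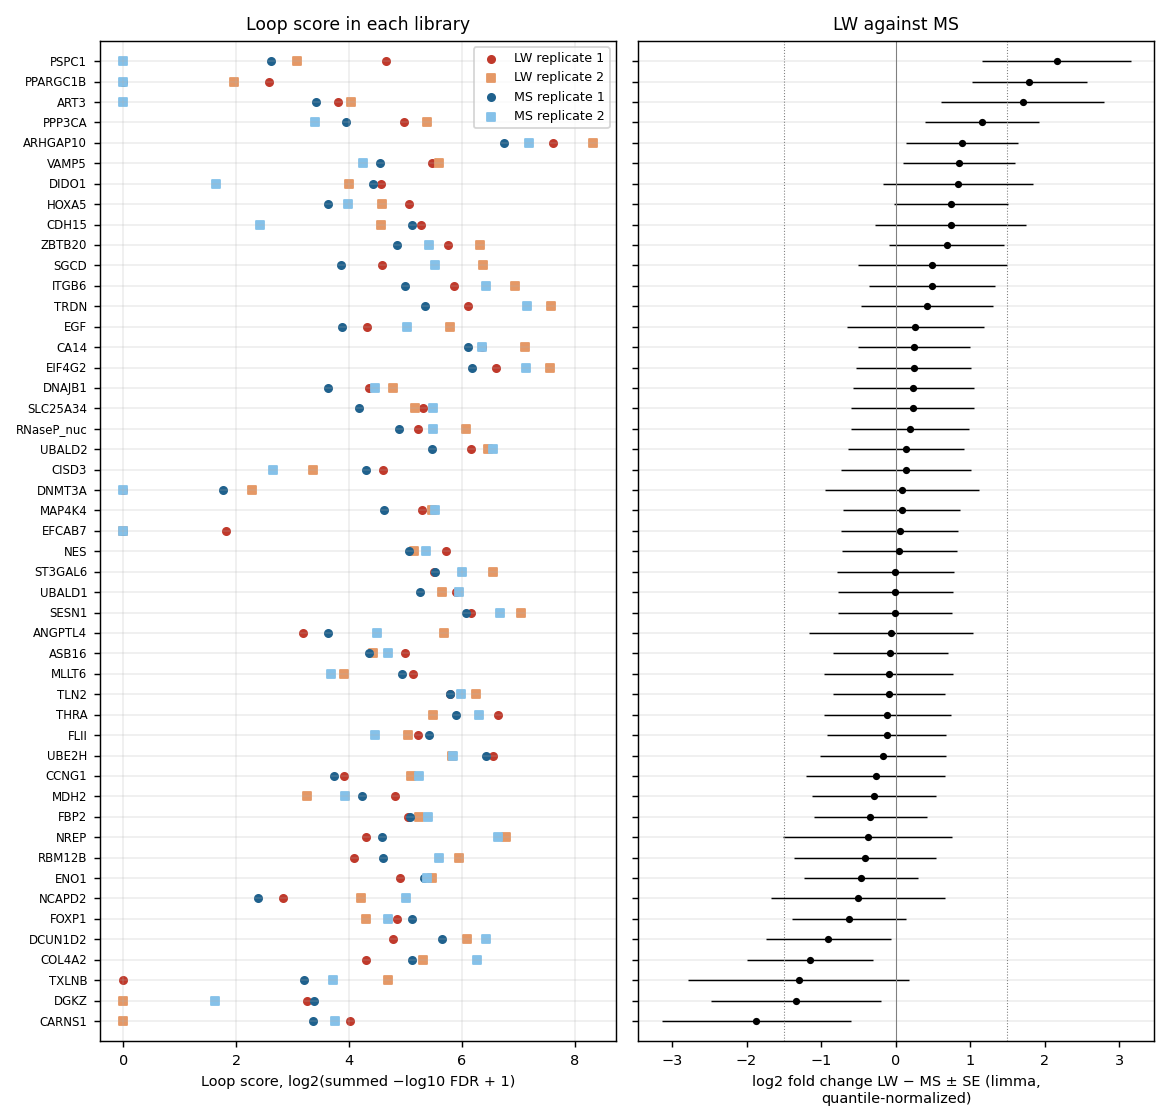
Loop score of the 48 genes in the 4 HiChIP libraries as log2(score + 1) (left) and its log2 fold change of LW over MS with the standard error from limma after quantile normalization (right), ordered by fold change, with dotted lines at 1.5 either way. PSPC1 at 2.16 and PPARGC1B at 1.80 lie highest and CARNS1 at -1.87 lowest, and none of the 48 passed the test.

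The score was compared between breeds with limma on log2(quantile-normalized score + 1) over all 15546 genes with a loop. At an absolute log2 fold change above 1.5 with an unadjusted p under 0.05, none of the 48 genes was called in either direction, against 2.84% of all genes called higher in LW and 2.49% called higher in MS. None had an unadjusted p under 0.05, and no gene of the 15546 passed an adjusted p of 0.05 (limma with Benjamini-Hochberg adjustment, 828 genes at an unadjusted p under 0.05). With the replicate number as a block, PPARGC1B and PSPC1 were called higher in LW, as were 705 of all genes, and 589 were called higher in MS. When 1 library was left out, 1 or 2 members were called each time: PPARGC1B and CARNS1 without LW replicate 1, PSPC1 and TXLNB without LW replicate 2, ART3 without MS replicate 1 and PPARGC1B without MS replicate 2. Scaling altered the calls over all genes: of those called, 53.3% were higher in LW after quantile normalization, 77.0% without it, 70.6% after scaling to equal totals and 31.2% with a pseudocount of 0.1. Without normalization the median of all genes lay at 0.38 on the log2 scale in favour of LW.

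The fold changes of the members were 25 positive and 23 negative, with a median of 0.05 against 0.02 over all genes. Without quantile normalization 35 of the 48 were positive, as were 65.3% of all genes. PSPC1 had a log2 fold change of 2.16 (SE 1.00, limma with Benjamini-Hochberg adjusted p = 0.993) and PPARGC1B one of 1.80 (SE 0.77, adjusted p = 0.939). ART3 stood at 1.70 (SE 1.09), PPP3CA at 1.16 (SE 0.76) and ARHGAP10 at 0.89 (SE 0.75). The lowest were CARNS1 at -1.87 (SE 1.27), DGKZ at -1.34 (SE 1.14), TXLNB at -1.30 (SE 1.49), COL4A2 at -1.15 (SE 0.85) and DCUN1D2 at -0.90 (SE 0.84). With 2 libraries a breed, standard errors ran from 0.75 to 1.49, and changes of over 2 times their error, such as that of PSPC1, were still not called. PPARGC1B passed the unadjusted rule without quantile normalization (2.27, with the median of all genes at 0.38) and with a pseudocount of 0.1 (3.76), whereas it stood at 0.66 with a pseudocount of 5 and at 0.32 with a window of 5 kb. When 1 library was left out, ART3 ran from 0.27 (without MS replicate 2) to 2.95 (without MS replicate 1), PSPC1 from 1.10 (without MS replicate 2) to 2.99 (without MS replicate 1), CARNS1 from -3.59 (without LW replicate 1) to -0.025 (without LW replicate 2), and COL4A2 and DCUN1D2 stayed below 0.

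Gene lists of muscle pathways held few of the 48: 2 of 37 genes of calcium handling (PPP3CA and TRDN), 1 of 30 of glycolysis and glycogen (FBP2), 1 of 28 of mitochondrial and lipid oxidation (PPARGC1B), 1 of 32 of growth and insulin signalling (SESN1), 2 of 31 of membrane and costamere (SGCD and TLN2) and 1 of 29 of extracellular matrix (COL4A2). None of 57 sarcomere genes was a member, whereas 29 of them were listed in all 4 libraries. The lists of muscle transcription regulators, ubiquitin and autophagy, chromatin and RNA processing, and circadian and stress response held 0. These lists were chosen with earlier results of these data known, and they are partial. The members ENO1, DNMT3A, MLLT6, ASB16 and UBE2H, for example, are in none of them. A count of 0 therefore does not show that a pathway is absent from the members.

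Few other genes of those pathways were called by the loop test, and the counts are to be read against the 2.84% and 2.49% of all genes called higher in LW and in MS. In calcium handling 2 of 37 genes were called higher in LW, the acetylcholine receptor subunits CHRND (log2 fold change 1.90) and CHRNE (2.47). In glycolysis 1 of 29 was higher in LW (LDHA, 1.97) and 1 higher in MS (PGK1, -2.66). In mitochondrial and lipid oxidation 1 of 25 was higher in LW, the acetyl-CoA carboxylase ACACB (3.09). In growth signalling 1 of 27 was higher in LW, the mTOR inhibitor DEPTOR (3.89). In membrane and costamere 1 of 31 was higher in LW, dystrophin (DMD, 2.99), and in extracellular matrix 1 of 23 was higher in MS, the protease inhibitor TIMP3 (-2.55). The remaining lists had 0 of 53 for the sarcomere, 1 of 26 for transcription regulators (SIX2, 2.31), 1 of 22 for ubiquitin and autophagy (ASB5, 3.07), 0 of 34 for chromatin and RNA processing and 1 of 23 for circadian and stress response (PER3, -2.28). None of these passed adjustment in limma, the smallest adjusted p being 0.802.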

How the data were processed

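GRID-seq and H3K27ac BL-HiChIP libraries were made from piglet longissimus muscle, 2 per breed and assay. For GRID-seq the authors split reads at the linker, aligned them with Bowtie2 and kept chromatin-enriched RNAs with background-corrected DNA contacts; the deposited lists give, per RNA and 1 kb bin, a read count of the RNA (not normalized) and a signal. For HiChIP they trimmed linkers with ChIA-PET2, aligned with BWA-MEM and called loops of 5 kb anchors with FitHiChIP, and the deposited loops carry a q-value (FDR) of at most 0.01. All coordinates are Sscrofa11.1.

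The members and gene lists were chosen with earlier results of these data known. Genes with values in every sample were picked by rank: the 10 highest in reads per kb, all with signal on another chromosome, the 5 with most signal beyond 10 kb, the 5 largest and 5 smallest loop fold changes, the 3 closest to the lowest listed RNA, and all in a gene list; others were named after their values were seen. The loop score took loops within 1 kb of a gene end, an FDR of 0 (2 loops) being set to 1e-300. The study used a count model on such a sum; as it is no count, limma 3.58.1 in R 4.3.3 was used, two-sided, on genes with a loop in at least 1 library. The script was tested on simulated data. Of 600 named RNAs, 583 matched the RefSeq gene table by symbol and chromosome. Read counts cover counting error only. Reads, signal and bins were not tested between breeds, since they decided membership. Depths and alternatives are given with the results. One result of the growth signalling list is not reported here.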

Additional observations from a re-analysis of the deposited data

How the results depend on the processing

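The count of 0 called members held for a pseudocount of 5, for genes with a loop in at least 2 libraries, for a window of 5 kb and for gene ends from the gene table. It became 1 without quantile normalization, with equal totals, with a pseudocount of 0.1, without the filter on genes (PPARGC1B each time, and without the filter 65 genes including it passed adjustment in limma, genes with no loop having been added), at the start of the gene only (DNAJB1) and with loops of FDR at most 0.001 (PSPC1). The listed span of DNAJB1 began 10.852 kb before its RefSeq span. Leaving out each HiChIP library in turn gave 1 to 2 called members: PPARGC1B and CARNS1 without LW replicate 1, PSPC1 and TXLNB without LW replicate 2, ART3 without MS replicate 1 and PPARGC1B without MS replicate 2. A lone library is there assumed to vary like the others. The labels name no animal or batch shared by libraries of the same replicate number. Across 15546 genes, however, the deviations of LW replicate 1 and MS replicate 1 from their breed means correlated at 0.357. Same-numbered libraries thus varied in part together, for a reason that was not tested. With a replicate block 2 members, PPARGC1B and PSPC1, and 705 and 589 of all genes were called. The remaining counts over all genes, 441 higher in LW and 387 higher in MS, were 868 higher in LW without quantile normalization, 722 with equal totals, 112 and 146 with a pseudocount of 5, 20 and 14 at the start of the gene only and 960 higher in MS with a pseudocount of 0.1, with ranges of 296 to 889 higher in LW and 454 to 877 higher in MS when a library was left out, the highest coming without LW replicate 1 and without MS replicate 2. CARNS1 turned positive with a window of 5 kb (0.65) and with gene ends from the table (0.64), and TXLNB with a window of 5 kb (0.11). DGKZ and TXLNB ran from -2.58 to 0.067 and from -3.62 to 1.07 when a library was left out, with positive values for DGKZ without LW replicate 2 and for TXLNB without LW replicate 1. The cause was not tested.

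The number of RNAs, 48, was 107 when one LW list sufficed, 46 without overlapping RNAs, 39 with at least 1.5 times the lowest level, and 51 to 98 when a GRID-seq library was left out, the largest values coming without LW replicate 1 (98) and without MS replicate 2 (92). The median share close to the gene, 73.4% as the mean of both libraries, was 86.4% with a window of 50 kb and 31.8% when bins replaced signal, and 72.1% to 77.7% when a library was left out. Loops came to 95 in LW and 94 in MS when called in both libraries, and to 249 to 285 in LW and 226 to 234 in MS when one was left out. Matching anchors within 5 kb, a choice made after seeing the data, raised the shared loops from 184 to 304 of LW and 302 of MS. Medians of reads per kb, 120.2, ran from 114 to 125 when a library was left out. MS replicate 2, with more listed reads than MS replicate 1, held 44 of the 47 RNAs just outside the rule. The part of depth in the lists was not tested.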
